A study of Mus musculus and Acomys cahirinus with 84 samples.

Results

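Primary skin fibroblasts of the spiny mouse *Acomys cahirinus* that had received 20 Gy of gamma radiation 12 d earlier were compared with untreated cells of the same animals that had been passaged and collected in the same 12 d series. The comparison holds 8 of the 84 libraries of the study, 4 per group, chosen by their titles and paired by replicate number. The whole study irradiated fibroblasts of *A. cahirinus*, of mice labelled C56BL6 and of wild mice with 0, 10 or 20 Gy and collected them after 24 h or 12 d. PolyA RNA was sequenced from stranded mRNA libraries, and all 12 d libraries carried one batch label. Each replicate number stands for one animal code in the library names, so replicate 1 at 20 Gy and replicate 1 of the passaged cells share a code. The labels do not say how often cells were passaged or at what density they were collected. The groups differ in both dose and passaging, and these cannot be told apart within this pair of groups. For that reason the values of untreated cells that were not labelled as passaged, and of cells at 10 Gy, stand beside the main comparison.

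Ionizing radiation breaks DNA, and the transcription factor p53 then induces Cdkn1a (p21), an inhibitor of cyclin-dependent kinases. Inhibited kinases leave the RB family unphosphorylated, and genes needed for DNA replication and mitosis are repressed, in mitotic genes partly through a promoter element called the cell cycle genes homology region (CHR). Fibroblasts that stay arrested after irradiation are used as a model of senescence, a state also known for Cdkn2a, loss of lamin B1, a larger lysosomal compartment and the release of cytokines, proteases and growth factors.

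The 20 Gy libraries held 31.68 to 35.28 M counted reads and the passaged libraries 25.55 to 28.86 M, so depth did not overlap between the groups. Genes with a count numbered 15856 to 16209 at 20 Gy and 14872 to 15067 in passaged cells. Levels are in CPM, counts per M reads after TMM scaling. A floor of 3 counts came to between 0.085 and 0.117 per M of the raw library totals, before that scaling, and covers counting error only. Values of 4 libraries are given below in the order of replicates 1 to 4. A change is the log2 fold change of 20 Gy against passaged ± its standard error over 4 pairs, and adjusted p-values come from edgeR's quasi-likelihood test with Benjamini-Hochberg adjustment. In bulk cultures, fewer cells of a type and less RNA per cell cannot be told apart.

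The labelled cell type was checked against marker lists. All 14 fibroblast markers were detected, 13 of them at a mean of at least 1 CPM in each group, and their summed level was 21059 to 28385 CPM in passaged cells and 21743 to 36912 CPM at 20 Gy. Dpt (dermatopontin) was at 0 to 0.143 CPM in passaged cells. Of 23 skeletal muscle markers in the table, 22 had a mean of at least 1 CPM in passaged cells and 23 at 20 Gy, with none at 0. Their summed level was 10933, 4402, 10599 and 9550.2 CPM in the passaged replicates and 26218, 4742, 26387 and 26554 CPM at 20 Gy. Replicate 2 had the lowest sum in both groups, and the other 3 replicates were higher at 20 Gy than any passaged library. In mice the same markers summed to 105 to 211 CPM in passaged and 24.5 to 64.4 CPM in 20 Gy C56BL6 cells, and to 26.7 to 527 and 16.6 to 203 CPM in wild mice. Cultures labelled fibroblasts from *A. cahirinus* therefore held skeletal muscle transcripts that rose with the comparison, and the part of these transcripts in the other results was not tested except where values without replicate 2 are given.

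**Figure D1:**
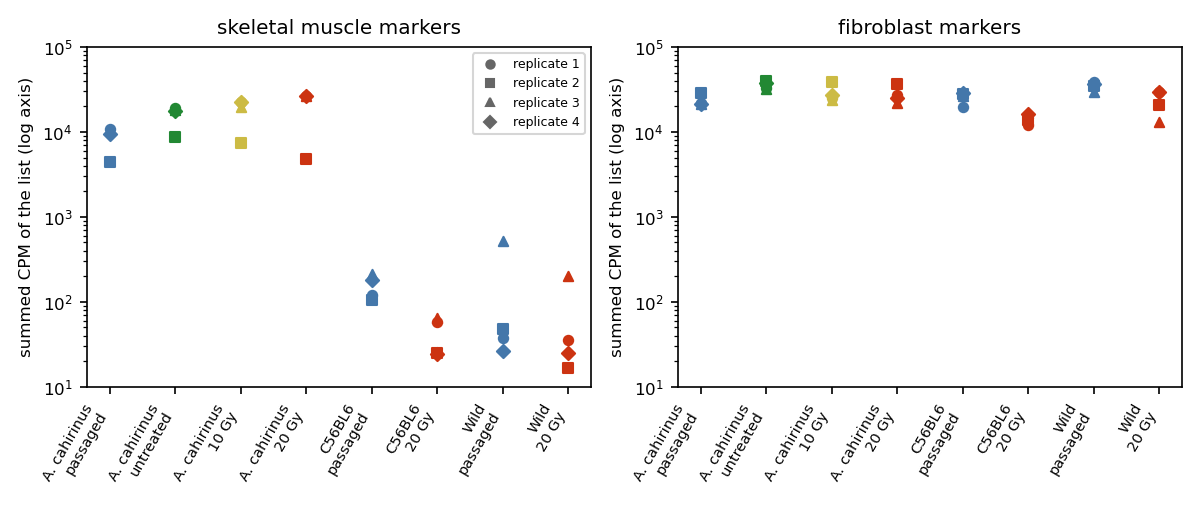
Summed CPM of 23 skeletal muscle markers (left) and 14 fibroblast markers (right) in each 12 d library, on log axes; each point is 1 library, its shape the replicate and its colour the group. Muscle markers lie at 4402 CPM or more in every *A. cahirinus* library, lowest in replicate 2, and at no more than 527 CPM in the mouse libraries, while fibroblast markers range from 12036 to 39504 CPM.

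Markers of other cell types were summed in the same way. Leukocyte markers summed to 8.13 to 9.85 CPM in passaged cells and 9.49 to 15.2 CPM at 20 Gy, with Adgre1, Cd3e, C1qa, C1qb and C1qc at 0 in all passaged libraries. Keratinocyte markers summed to 4.68 to 11.5 and 22.9 to 26.6 CPM, endothelial markers to 2.96 to 37.7 and 11.4 to 36.2 CPM, and melanocyte and Schwann cell markers to 31.4 to 61.9 and 47.7 to 121 CPM. Pericyte and smooth muscle markers summed to 5282 to 7666 and 5393 to 7658 CPM, and chondrocyte and osteoblast markers to 384 to 478 and 261 to 454 CPM. The adipocyte list was carried by Car3 (carbonic anhydrase 3, which skeletal muscle also makes), at 11488, 7926, 11678 and 11784 CPM in passaged cells and 6245, 2489, 6002 and 6273 CPM at 20 Gy, while Fabp4 and Cfd were at 0 in all passaged libraries. Of the tested markers, those higher and lower at 20 Gy numbered 9 and 2 of 14 for fibroblasts (5 and 1 without the block), 4 and 0 of 7 for keratinocytes, 5 and 0 of 5 for endothelium (2 and 0), 2 and 0 of 6 for leukocytes, 3 and 3 of 9 for pericytes and smooth muscle (1 and 1), 5 and 2 of 8 for adipocytes, 5 and 0 of 7 for melanocytes and Schwann cells (3 and 0), and 2 and 3 of 9 for chondrocytes and osteoblasts. These counts stand against 28% of all genes in each direction, and those without the block against 2602 higher and 3066 lower of 13338. A gene could pass the filter on low counts through 1 group alone. Of 10 endothelial markers, 1 had a mean of at least 1 CPM in passaged cells and 4 at 20 Gy. For the 10 keratinocyte markers the numbers were 3 and 5. In lists this low, the share called higher is partly set by the filter. The keratinocyte gene Trp63 was at 1.49, 0.393, 1.66 and 1.23 CPM in passaged cells and 13.2, 2.14, 12.4 and 13.3 CPM at 20 Gy (3.05 ± 0.19, adjusted p = 3.91e-05), with the lowest irradiated value in replicate 2. Fap, a surface protease of activated fibroblasts, went from 3.68, 10.9, 3.92 and 2.18 CPM to 12.5, 42.3, 11.5 and 10.5 CPM (1.87 ± 0.14, adjusted p = 7.49e-05), with the highest value of each group in replicate 2.

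Against passaged cells, genes of cell division fell at 20 Gy, and many p53 targets, matrix protease, growth factor and skeletal muscle genes rose. Against untreated cells without the passaged label, the protease and muscle lists had fewer genes higher and lower medians, as given below. Of 13338 genes tested, 3733 (28%) were higher and 3732 (28%) lower at 20 Gy, 56% in all. Changes of at least 2-fold were found for 1657 genes in the higher direction (12.4%) and 856 in the lower (6.42%), and the median change over all genes tested was -0.00062. Within groups, Spearman's rho between libraries was 0.967 to 0.995 for passaged cells and 0.940 to 0.994 at 20 Gy, and between the groups it was 0.898 to 0.957. Without the replicate block 5668 genes passed, 2602 higher and 3066 lower, and the count ranged from 5363 to 8638 when 1 replicate number was left out. Counts of list members below, with and without the block, stand beside these counts over all genes.

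Genes of mitosis and the kinetochore, the machinery that segregates chromosomes, were lower at 20 Gy without exception among the 39 of 40 listed genes that were tested, with a median change of -3.54 and a range of -5.84 to -0.40. The mean log2(CPM + 1) of the list was 4.55 to 5.30 in passaged libraries and 2.11 to 2.36 at 20 Gy. Plk1, a kinase that drives entry into and passage through mitosis, was at 48.2, 28.3, 49.3 and 51.4 CPM in passaged cells and 0.567, 0.487, 1.18 and 0.842 CPM at 20 Gy. All 4 irradiated libraries were near 1 CPM or below, passaged replicate 2 was lower than the other 3 passaged libraries, and the groups did not overlap (change -5.84 ± 0.17, adjusted p = 6.69e-06). The microtubule-depolymerizing kinesin Kif2c went from 24.2, 14.7, 26 and 26.7 CPM to 0.284, 0.162, 0.886 and 0.393 CPM, a change of -5.74 ± 0.27 (adjusted p = 1.61e-05). Cdc20, the activator of the anaphase-promoting complex, went from 73.2, 42.1, 76 and 69.2 CPM to 0.977, 1.20, 1.96 and 1.49 CPM (-5.52 ± 0.18, adjusted p = 7.55e-06). For each of these genes the highest irradiated library was more than 10-fold below the lowest passaged library.

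The 10 genes with the largest falls among genes with a mean of at least 5 CPM were genes known from cell division. Beside Plk1, Kif2c and Cdc20 they were Depdc1a (-5.72), Troap (-5.52), the mitotic kinase Pbk (-5.40), the cytokinesis and spindle kinesins Kif23 (-5.31) and Kif11 (-5.19), cyclin A2 (Ccna2, -5.19) and Hjurp (-5.15), the chaperone of the centromeric histone. The groups overlapped in none of the 10, while 22.3% of all genes tested lay wholly lower at 20 Gy. The 10 were picked for large falls in 4 of 4 pairs, so their separation was partly set by the rule. The proliferation marker Mki67 was at 134, 74.5, 107 and 127 CPM in passaged cells and 3.56, 3.47, 6.50 and 3.82 CPM at 20 Gy, and DNA topoisomerase Top2a at 172, 73.2, 152 and 166 CPM and 8.48, 3.18, 10.2 and 11.9 CPM. Passaged replicate 2 had the lowest Mki67 and Top2a of its group, and irradiated replicate 2 the lowest Top2a. The changes were -4.67 ± 0.22 for Mki67 (adjusted p = 1.51e-05) and -4.12 ± 0.15 for Top2a (adjusted p = 8.58e-06). Cyclin B1 (Ccnb1), the mitotic cyclin, went from 67.3 ± 15.2 CPM to 5.24 ± 0.544 CPM (SD, n = 4; change -3.66 ± 0.18, adjusted p = 1.86e-05).

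The promoters of these genes are shown because the genes fell together and because the CHR, which reads TTTGAA, is the element known for repressing mitotic genes in resting cells. No genome of *A. cahirinus* was used here, so the letters are those of the mouse genes in RefSeq (build GRCm38.p6), matched by symbol. Among the 32 genes of the mitosis list with a promoter in that table, 22 (68.8%) held TTTGAA on either strand within 250 bases before to 50 bases after the start, against 5466 of all 27025 mouse genes in the table (20.2%). In the 100 bases before the start alone the counts were 8 of 32 (25%) and 1827 of 27025 (6.76%). For DNA replication genes, which also fell, the share was 4 of 30 (13.3%) in the longer window, and for p53 targets it was 4 of 26 (15.4%). Homologous recombination and Fanconi genes, another list that fell, gave 3 of 17 (17.6%). In the 100 bases alone these 3 lists gave 2 of 30 (6.67%), 1 of 26 (3.85%) and 0 of 17. A match describes these letters and not a site in use. Of the panel genes and the 10 that fell most, 18 had a promoter in the table. At least 6 held the motif in the 100 bases before the start. In 4 of these 6, 10 to 17 bases lay between the motif and the start. Those 4 are printed 5′ to 3′ on the strand of the gene, with TTTGAA or its reverse complement TTCAAA in capitals. They end at the base before the start. They lie at chr4:118437344-118437443 (minus strand) for Cdc20, chr3:159495333-159495432 (plus strand) for Depdc1a, chr19:37376282-37376381 (plus strand) for Kif11 and chr11:99024190-99024289 (minus strand) for Top2a.
Cdc20: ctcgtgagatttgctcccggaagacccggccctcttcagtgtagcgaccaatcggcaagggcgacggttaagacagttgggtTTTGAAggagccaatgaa
Depdc1a: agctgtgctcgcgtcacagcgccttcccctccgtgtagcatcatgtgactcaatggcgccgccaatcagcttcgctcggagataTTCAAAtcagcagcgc
Kif11: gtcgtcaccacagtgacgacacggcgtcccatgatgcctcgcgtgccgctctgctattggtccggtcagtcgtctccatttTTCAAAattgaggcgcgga
Top2a: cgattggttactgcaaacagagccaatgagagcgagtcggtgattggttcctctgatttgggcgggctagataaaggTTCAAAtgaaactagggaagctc

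DNA replication and nucleotide supply fell with mitosis. All 35 listed genes were tested, 34 were lower and none was higher, with a median change of -1.69. Cdc6, which loads the replicative helicase, was at 8.28, 4.29, 9.50 and 11.7 CPM in passaged cells and 0.221, 0.227, 0.510 and 0.337 CPM at 20 Gy (change -4.67 ± 0.24, adjusted p = 1.92e-05). Every irradiated library was below 1 CPM and every passaged library above 4 CPM. Uhrf1, which helps to maintain DNA methylation at the fork, changed by -3.83 ± 0.13 and thymidine kinase Tk1 by -3.47 ± 0.21 (adjusted p = 7.55e-06 and 3.88e-05). Genes of homologous recombination and the Fanconi pathway, which repair breaks and crosslinks in replicating DNA, were lower for 22 of 25 and higher for 0, with a median of -1.59. Their 3 largest falls were Dna2 (-3.98 ± 0.37), Fanci (-3.79 ± 0.23) and Brca1 (-3.53 ± 0.26), with adjusted p of 0.000168, 3.8e-05 and 7.49e-05. Brca1 was at 18.6, 8.76, 17.1 and 20.2 CPM in passaged cells and at 1.21 to 1.62 CPM in irradiated ones.

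Of 25 cyclins, cyclin-dependent kinases and genes of the E2F network tested, 17 were lower and 3 higher, with a median of -1.24. The largest falls were those of cyclin A2 (Ccna2, -5.19 ± 0.20), the transcription factor Mybl2 (-5.09 ± 0.25) and cyclin B2 (Ccnb2, -4.81 ± 0.17), with adjusted p of 8.58e-06, 1.86e-05 and 7.68e-06. The 3 genes that rose were the D-type cyclins, which act in G1. Ccnd1 was at 309, 397, 224 and 154 CPM in passaged cells and 971, 1253, 846 and 843 CPM at 20 Gy (1.92 ± 0.15, adjusted p = 9.99e-05), and Ccnd2 at 327, 565, 203 and 232 and 761, 1234, 704 and 705 CPM (1.43 ± 0.14, adjusted p = 0.000196). Replicate 2 was the highest library of its group for both, and neither gene's groups overlapped. Ccnd3 changed by 0.89 ± 0.14 (adjusted p = 0.0015), and its replicate 2 at 20 Gy, at 239 CPM, lay within the passaged range of 181 to 314 CPM.

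**Figure D2:**
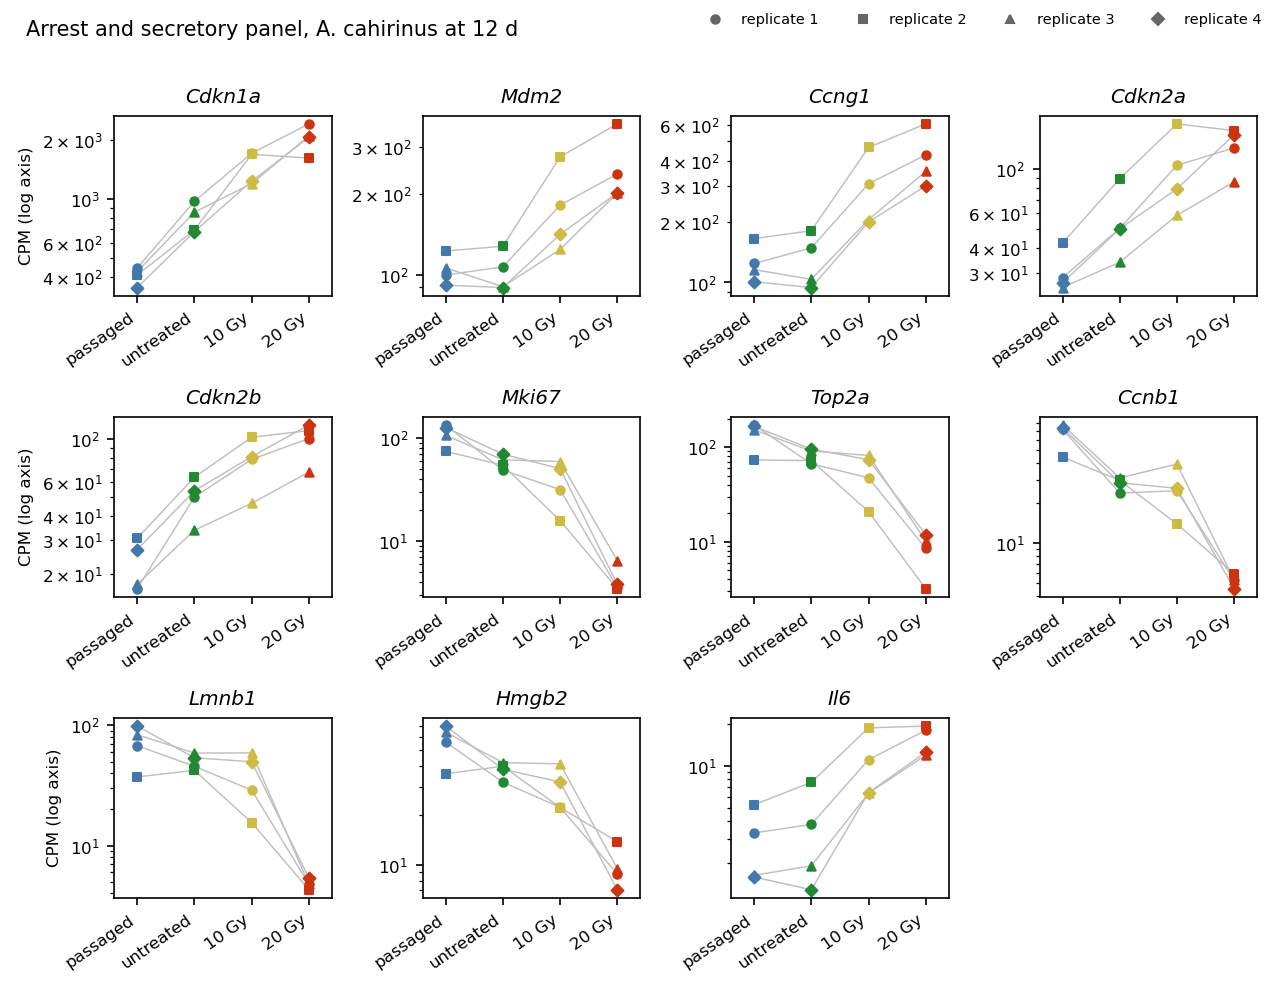
CPM of 11 panel genes in each *A. cahirinus* library of the 12 d series, on log axes that differ between genes; shapes mark replicates, colours groups, and grey lines join libraries of the same replicate number. The 4 libraries at 20 Gy lie outside the range of the 4 passaged libraries for all 11 genes, above it for Cdkn1a, Mdm2, Ccng1, Cdkn2a, Cdkn2b and Il6 and below it for the other 5.

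Of 34 p53 targets tested among 35 listed, 20 were higher and 4 lower, against 28% of all genes in each direction, and the median change was 0.50. Cdkn1a was at 447, 411, 428 and 355 CPM in passaged cells and 2401, 1610.3, 2087 and 2053 CPM at 20 Gy. The lowest irradiated library, replicate 2, was still above every passaged library, and the change was 2.30 ± 0.13 (adjusted p = 2.4e-05). Mdm2, the ubiquitin ligase that limits p53, went from 99.7, 123, 106 and 91.4 CPM to 237, 365, 201 and 202 CPM (1.22 ± 0.11, adjusted p = 0.000149), and cyclin G1 (Ccng1) from 124, 165, 116 and 100.8 to 427, 608, 354 and 300.0 CPM (1.71 ± 0.09, adjusted p = 1.94e-05). Here replicate 2 was the highest of each group. The largest rises in the list were those of Pltp, a phospholipid transfer protein (3.28 ± 0.27), Eda2r, a receptor of the tumor necrosis factor family (2.96 ± 0.25), and Pmaip1, which encodes the pro-apoptotic protein Noxa (2.63 ± 0.13), with adjusted p of 0.000116, 0.000116 and 1.86e-05. Pmaip1 was at 7.05, 4.90, 6.90 and 4.43 CPM in passaged and 54.5, 24.3, 38.7 and 30.4 CPM in irradiated cells, without overlap.

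Among p53 targets that fell, the ribosomal protein gene Rpl22l1 was at 141 to 179 CPM in passaged cells and 58.9 to 80 CPM at 20 Gy (-1.15 ± 0.12, adjusted p = 0.000283). The stress cytokine Gdf15 was at 5.37, 5.83, 8.01 and 6.65 CPM in passaged cells and 1.73, 7.04, 2.20 and 3.25 CPM at 20 Gy. Irradiated replicate 2 lay within the passaged range and the other 3 below it. The change of Gdf15 was -1.03 ± 0.34 with adjusted p = 0.0332, and it no longer passed without replicate 1, 3 or 4 (adjusted p = 0.133, 0.134 and 0.0702) or without the block (0.108). The pro-apoptotic gene Bax, named after its value was seen, was at 104 to 118 CPM in passaged and 97.2 to 112 CPM in irradiated cells, a change of -0.07 ± 0.08 that did not pass the test (adjusted p = 0.502).

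Of 11 inhibitors of cyclin-dependent kinases and RB family genes, 4 were higher and 4 lower, against 28% of all genes in each direction. Cdkn2a, whose locus encodes p16 and p19, was at 28.2, 42.2, 25.2 and 26.6 CPM in passaged cells and 129, 157, 86.5 and 149.7 CPM at 20 Gy (2.08 ± 0.13, adjusted p = 4.27e-05). Its neighbour Cdkn2b, which encodes p15, went from 16.8, 30.6, 17.7 and 26.7 CPM to 100.5, 111, 67.4 and 118 CPM (2.12 ± 0.13, adjusted p = 4.27e-05). The groups did not overlap for either gene, and replicate 3 was the lowest irradiated library for both. The genes that fell included the RB relative Rbl1 (-2.29 ± 0.22), the phosphatase Cdkn3 (-2.07 ± 0.12) and Cdkn1b, which encodes p27 (-0.50 ± 0.11), with adjusted p of 0.000212, 2.94e-05 and 0.0068.

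Nuclear lamina and HMGB genes fell in 9 of 12 and rose in 0, with a median of -0.74. Lmnb1, which encodes lamin B1, was at 67.8, 37.3, 83.4 and 98.6 CPM in passaged cells and 4.76, 4.28, 4.75 and 5.36 CPM at 20 Gy. The irradiated libraries lay within a narrow band, and the lowest passaged library, replicate 2, was several-fold above it (-3.84 ± 0.18, adjusted p = 1.61e-05). Lmnb2 changed by -2.15 ± 0.12 and the chromatin protein gene Hmgb2 by -2.53 ± 0.28 (adjusted p = 2.24e-05 and 0.000367). Hmgb2 went from 56, 35.9, 64.3 and 70.1 CPM to 8.80, 13.8, 9.48 and 7.04 CPM.

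**Figure D3:**
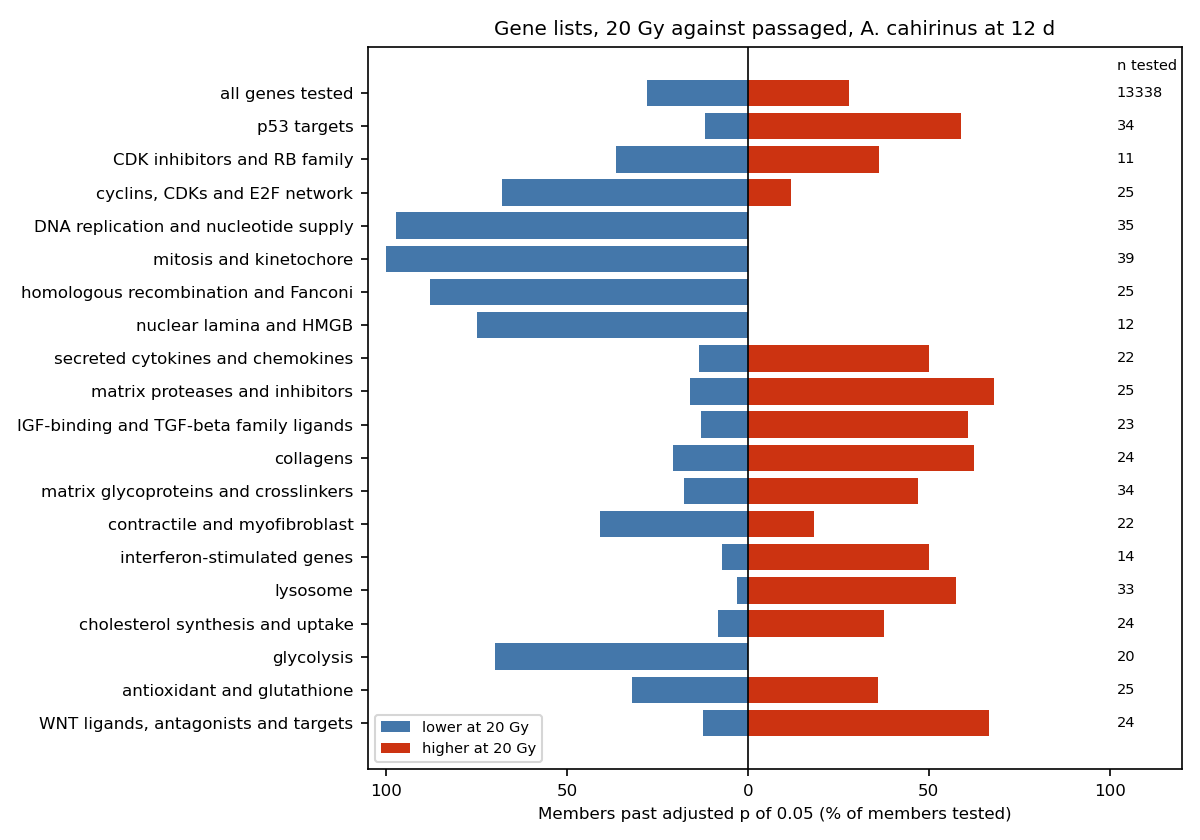
Percent of the tested members of each list that were lower (left of 0) or higher (right of 0) at 20 Gy than in passaged cells at an adjusted p under 0.05, with the number tested at the right and all 13338 genes in the top bar. The mitosis and replication bars lie wholly on the lower side, glycolysis too, and protease, WNT, collagen and p53 bars mostly on the higher side, against 28% in each direction over all genes.

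Secreted cytokines and chemokines were higher for 11 and lower for 3 of 22 tested among 30 listed, with a median of 1.04. The interleukin gene Il6 was at 3.30, 5.26, 1.63 and 1.58 CPM in passaged cells and 18.1, 19.4, 12 and 12.6 CPM at 20 Gy, without overlap (2.50 ± 0.21, adjusted p = 0.000111). The monocyte chemoattractant Ccl7 went from 4.33, 6.69, 2.88 and 4.22 CPM to 35.4, 52, 27.5 and 36.7 CPM (3.08 ± 0.10, adjusted p = 7.55e-06). Replicate 2 was the highest library of its group for both genes. Il34, a ligand of the macrophage receptor Csf1r, was at 0.211 to 1.04 CPM in passaged cells and 2.28 to 3.96 CPM at 20 Gy (3.01 ± 0.40, adjusted p = 0.000747). The osteoclast factor Tnfsf11 (RANKL) fell by 2.44 on the log2 scale, with 1.29 to 3.95 CPM in passaged cells and 0.284 to 0.645 CPM at 20 Gy (adjusted p = 0.000163), and Lif changed by -0.41 ± 0.09 (adjusted p = 0.00627). The macrophage growth factor Csf1 was at 1135, 1354, 865 and 636 CPM in passaged cells and 719, 1158, 655 and 569 CPM at 20 Gy, groups that overlapped. Its change of -0.36 ± 0.11 passed with adjusted p = 0.0241, but not without replicate 1 (0.127), without replicate 3 (0.0707) or without the block (0.299).

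Matrix proteases and their inhibitors were higher for 17 and lower for 4 of 25 tested, with a median of 1.11; without the block 10 were higher and 3 lower. The stromelysins Mmp3 and Mmp10 and the collagenase Mmp13 rose most. Mmp3 was at 4.33, 4.68, 1.91 and 5.91 CPM in passaged cells and 17.8, 51.1, 29.7 and 19.2 CPM at 20 Gy (2.74 ± 0.37, adjusted p = 0.000804). Mmp13 went from 0.422, 1.04, 0.659 and 0.352 CPM to 5.99, 14.6, 11.9 and 4.41 CPM (3.87 ± 0.17, adjusted p = 1.38e-05) and Mmp10 from 0.268, 0.429, 0.277 and 0.141 to 2.84, 7.76, 5.85 and 1.46 CPM (3.92 ± 0.26, adjusted p = 5.23e-05). Replicate 2 was the highest irradiated library for all 3, and none of the 3 overlapped with passaged cells. Genes of the urokinase system were among those that fell. The urokinase receptor gene Plaur was at 16.8 to 25.4 CPM in passaged cells and 3.83 to 5.08 CPM at 20 Gy (-2.30 ± 0.11, adjusted p = 1.47e-05), and urokinase itself, Plau, changed by -0.94 ± 0.15 (adjusted p = 0.00198).

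Growth factors and their binding proteins, listed as insulin-like growth factor binding proteins and TGF-beta family ligands, were higher for 14 and lower for 3 of 23 tested, with a median of 0.83; without the block 10 were higher and 1 lower. The bone morphogenetic protein family ligand Gdf6 was at 1.38, 2.11, 1.14 and 0.422 CPM in passaged cells and 35.7, 31.6, 25 and 19.7 CPM at 20 Gy (4.52 ± 0.23, adjusted p = 1.99e-05). Fst, which encodes the activin antagonist follistatin, went from 2.41, 3.08, 2.98 and 2.96 CPM to 43.9, 23.3, 39.4 and 65.3 CPM (3.83 ± 0.25, adjusted p = 4.88e-05), and Bmp4 changed by 2.95 ± 0.16 (adjusted p = 2.23e-05). Gdf10, another ligand of the family, was the strongest fall, from 15.1, 16.7, 21.4 and 15 CPM to 0.662, 1.33, 1.56 and 1.15 CPM (-3.87 ± 0.17, adjusted p = 1.34e-05). All 4 genes separated the groups completely.

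Of 24 collagens tested, 15 were higher and 5 lower, with a median of 0.61; without the block 9 were higher and 3 lower. Col22a1, a collagen known from the myotendinous junction, went from 0.230, 0.107, 0.312 and 0.0704 CPM to 27.5, 1.49, 40.2 and 11.2 CPM, with replicate 2 the lowest irradiated library (6.72 ± 0.33, adjusted p = 1.86e-05). Its passaged values were within a few floors of 0, so the size of the fold is poorly fixed. Col24a1 changed by 3.86 ± 0.32 and Col23a1 by 3.55 ± 0.40 (adjusted p = 0.00011 and 0.000403). Col14a1, a fibril-associated collagen, was at 6.40, 3, 7.56 and 25.1 CPM in passaged cells and 1.45, 0.454, 1.85 and 12.9 CPM at 20 Gy, lower in each pair, with groups that overlapped (-1.80 ± 0.27, adjusted p = 0.00128, and 0.316 without the block). Col5a3 was at 361 to 930.1 CPM in passaged cells and 115 to 332 CPM at 20 Gy (-1.28 ± 0.15, adjusted p = 0.000452) and Col6a3 changed by -0.64 ± 0.11 (adjusted p = 0.0026). The main fibril collagen Col1a1 was at 6685 to 7508 CPM in passaged and 5087 to 5966 CPM in irradiated cells. Its change was -0.31 ± 0.11 with adjusted p = 0.048, and it did not pass when any 1 replicate was left out (0.108, 0.0575, 0.124 and 0.0959 without replicates 1 to 4).

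Matrix glycoproteins and crosslinking enzymes were higher for 16 and lower for 6 of 34, with a median of 0.10; without the block 10 were higher and 3 lower. Tenascin C (Tnc) was at 121, 186, 107 and 101.5 CPM in passaged cells and 542, 1656, 1161 and 652 CPM at 20 Gy (2.86 ± 0.21, adjusted p = 7.43e-05). Lumican (Lum) went from 51.8, 279.9, 48.1 and 33.1 CPM to 498, 1832, 488 and 284 CPM (3.10 ± 0.14, adjusted p = 1.28e-05), with replicate 2 far above the others in both groups. Fibrillin 2 (Fbn2) changed by 3.67 ± 0.32 (adjusted p = 0.000128). The largest falls were those of tenascin N (Tnn), from 73.9, 89, 87.1 and 127 CPM to 7.85, 5.55, 13.8 and 33.5 CPM (-2.92 ± 0.32, adjusted p = 0.000331), of fibulin 2 (Fbln2, -1.81 ± 0.10, adjusted p = 2.99e-05) and of Matn2 (-1.35 ± 0.15, adjusted p = 0.000412, and 0.0611 without the block). Contractile and myofibroblast genes were higher for 4 and lower for 9 of 22, against 28% of all genes in each direction. The median was -0.28, and without the block 1 was higher and 7 lower. The actin crosslinker filamin A (Flna) was at 3629.7 to 4695 CPM in passaged cells and 1638 to 2218 CPM at 20 Gy (-1.18 ± 0.10, adjusted p = 0.000118), and smoothelin (Smtn) and Actg2 changed by -1.25 ± 0.10 and -1.14 ± 0.15 (adjusted p = 0.000105 and 0.000753).

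WNT ligands, antagonists and targets were higher for 16 and lower for 3 of 24 tested, with a median of 0.85; without the block 11 were higher and 1 lower. The ligand Wnt2 rose from 0.613, 0.823, 0.902 and 0.633 CPM to 4.32, 6.75, 2.98 and 6.37 CPM (2.72 ± 0.28, adjusted p = 0.000269) and the secreted antagonist Sfrp2 from 1.49, 1.82, 2.18 and 3.66 to 10.1, 4.16, 13.6 and 18.4 CPM (2.25 ± 0.26, adjusted p = 0.000433). Notum, an enzyme that inactivates WNT proteins, changed by -1.21 ± 0.23 (adjusted p = 0.00385, and 0.166 without the block). Ligand and antagonist both separated the groups, while the groups of Notum overlapped.

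Lysosomal genes were higher for 19 and lower for 1 of 33 tested, with a median of 0.36. The membrane glycoprotein gene Gpnmb was at 5.33, 4.58, 3.33 and 5 CPM in passaged cells and 46.6, 44.8, 56.9 and 48.8 CPM at 20 Gy (3.44 ± 0.17, adjusted p = 1.86e-05), and the lysosomal membrane protein gene Lamp1 at 496, 585, 457 and 408 and 1002, 1194, 857 and 883 CPM (1.01 ± 0.09, adjusted p = 0.00012). Both separated the groups. The peptidase gene Tpp1 was the one that fell (-0.45 ± 0.07, adjusted p = 0.00176). Glycolytic genes fell in 14 of 20 and rose in 0, with a median of -0.41. The phosphofructokinase gene Pfkp went from 507, 546, 529 and 429 CPM to 149, 242, 148 and 131 CPM (-1.62 ± 0.12, adjusted p = 7.5e-05), and enolase Eno1 and lactate dehydrogenase Ldha changed by -0.74 ± 0.11 and -0.66 ± 0.11 (adjusted p = 0.00112 and 0.00192).

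Cholesterol genes were higher for 9 and lower for 2 of 24, against 28% of all genes in each direction, and the median was 0.22. Without the block 5 were higher and 2 lower, beside 2602 and 3066 of all 13338 genes. In all, 7 passed without replicate 1. Their largest changes were small, from 0.84 ± 0.15 for Hsd17b7 to -0.996 ± 0.10 for Dhcr7, a late enzyme of the pathway (adjusted p = 0.00255 and 0.000224). Of 25 antioxidant and glutathione genes, 9 were higher and 8 lower, against 28% of all genes in each direction. Heme oxygenase (Hmox1) was at 103, 157, 128 and 87.3 CPM in passaged cells and 239, 470.0, 231 and 189.6 CPM at 20 Gy (1.19 ± 0.12, adjusted p = 0.000222), and the cystine transporter gene Slc7a11 at 24.1, 22.5, 32.8 and 28.8 and 7.03, 5.84, 8.38 and 9.85 CPM (-1.81 ± 0.11, adjusted p = 3.88e-05). These 2 separated the groups in opposite directions.

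Interferon-stimulated genes were low in these cultures. Of 25 found in the table, 14 passed the filter on low counts, which a gene could pass through 1 group alone. Of these, 7 were higher and 1 lower, with a median of 0.41; 3 passed in all without replicate 3, 5 without replicate 4 and 5 without the block. Bst2 (tetherin) went from 2.87, 2.18, 2.29 and 2.15 CPM to 7.06, 8.76, 4.67 and 5.05 CPM (1.39 ± 0.19, adjusted p = 0.000826) and the transcription factor Irf7 from 1.38, 1.18, 0.485 and 0.598 to 2.24, 2.99, 2.25 and 3 CPM (1.58 ± 0.32, adjusted p = 0.00445). No irradiated library reached 10 CPM for either gene.

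Skeletal muscle genes were among the strongest rises. Among the 10 genes that rose most with a mean of at least 5 CPM were Mybpc1, Col22a1, Myot, Mss51, Zdbf2, Rxrg, Sypl2, Gabbr2 and Dcx. Mybpc1, which encodes a myosin-binding protein of skeletal muscle, was at 0.498, 0.501, 0.520 and 0.0704 CPM in passaged cells and 97.6, 5.29, 131 and 72.3 CPM at 20 Gy (7.43 ± 0.63, adjusted p = 0.000124). Its passaged values were near the floor, so the size of the fold is poorly fixed. With 1 replicate left out it ranged from 6.96 to 8.13 on the log2 scale. The sarcomere protein gene Myot went from 0.958, 0.787, 1.21 and 0.422 CPM to 86.6, 11.7, 106 and 62 CPM (6.15 ± 0.42, adjusted p = 5.6e-05). For both, irradiated replicate 2 was far below the other irradiated libraries and above all passaged ones. The same order held for Mss51, a muscle gene (4.93 ± 0.69), Sypl2, which encodes the triad protein mitsugumin 29 (4.78 ± 0.32), the retinoid receptor gene Rxrg (4.86 ± 0.39), Gabbr2 (4.72 ± 0.27), Dcx (4.70 ± 0.22) and Zdbf2 (4.91 ± 0.32), with adjusted p between 1.51e-05 for Dcx and 0.000933 for Mss51.

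Of the 23 skeletal muscle markers, 16 were higher and 2 lower at 20 Gy, against 28% of all genes in each direction, with a median of 1.49. Without replicate 2 the counts were 20 and 2 and the median 1.87, beside 4333 and 4305 of all 13441 genes tested. Myosin heavy chains of fetal and fast fibres led the list. Myh8 was at 19.1, 14.8, 11.7 and 5.74 CPM in passaged cells and 238, 34.1, 220.2 and 163 CPM at 20 Gy (3.52 ± 0.58, adjusted p = 0.00195), and Myh2 at 32.8, 8.15, 32 and 29.7 and 329, 22.2, 462 and 349 CPM (3.11 ± 0.39, adjusted p = 0.000572). Irradiated replicate 2 fell within the passaged range for Myh2 and not for Myh8. The myosin genes are near-copies of each other, so reads may have been lost or split between them. Genes of satellite cell factors fell. Pax7 was at 46.3, 24.5, 38.1 and 54.3 CPM in passaged cells and 24, 7.11, 22.4 and 34.6 CPM at 20 Gy (-1.01 ± 0.19, adjusted p = 0.00312, and 0.14 without the block), and Myf5 changed by -0.74 ± 0.14 (adjusted p = 0.00396, and 0.345 without the block). The myogenic regulators Myod1 and Myog, named after their values were seen, were at 181, 74, 170.0 and 164 and 582, 299, 678 and 552 CPM in passaged cells. Their changes of -0.37 ± 0.21 and 0.46 ± 0.20 did not pass the test (adjusted p = 0.17 and 0.0816).

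The changes of the arrest and muscle lists were also measured in the other 2 groups of the 12 d series. These comparisons share libraries with each other and with the one above, so their values are set side by side. Untreated cells without the passaged label differed from passaged cells in 6431 of 12992 genes (49.5%, with 3417 or 26.3% higher and 3014 or 23.2% lower), and 20 Gy from those untreated cells in 6623 of 13462 (49.2%, with 3159 or 23.5% higher and 3464 or 25.7% lower). At 10 Gy 5976 of 13103 genes (45.6%, with 23.2% higher and 22.4% lower) differed from passaged cells. Without replicate 1 the counts were 4294 for 20 Gy against untreated (2095 higher and 2199 lower) and 3764 for 10 Gy against passaged (2012 and 1752), and without replicate 3 those lower in untreated than in passaged cells numbered 1953. For the mitosis list the median was -0.83 for untreated against passaged, -1.34 for 10 Gy against passaged and -2.62 for 20 Gy against untreated, with 39 of 39, 38 of 39 and 35 of 38 genes lower. Mki67 was at 49, 54.6, 61.7 and 69.9 CPM in untreated and 31.8, 15.9, 59.4 and 50.8 CPM in 10 Gy cells. All 8 of these libraries lay below every passaged and above every 20 Gy library. The mean log2(CPM + 1) of the mitosis list was 4.03 to 4.43 in untreated and 3.24 to 4.44 in 10 Gy libraries. For the p53 targets it was 4.52 to 4.67 in passaged, 4.76 to 4.92 in untreated, 5 to 5.31 in 10 Gy and 5.27 to 5.37 in 20 Gy libraries.

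**Figure D4:**
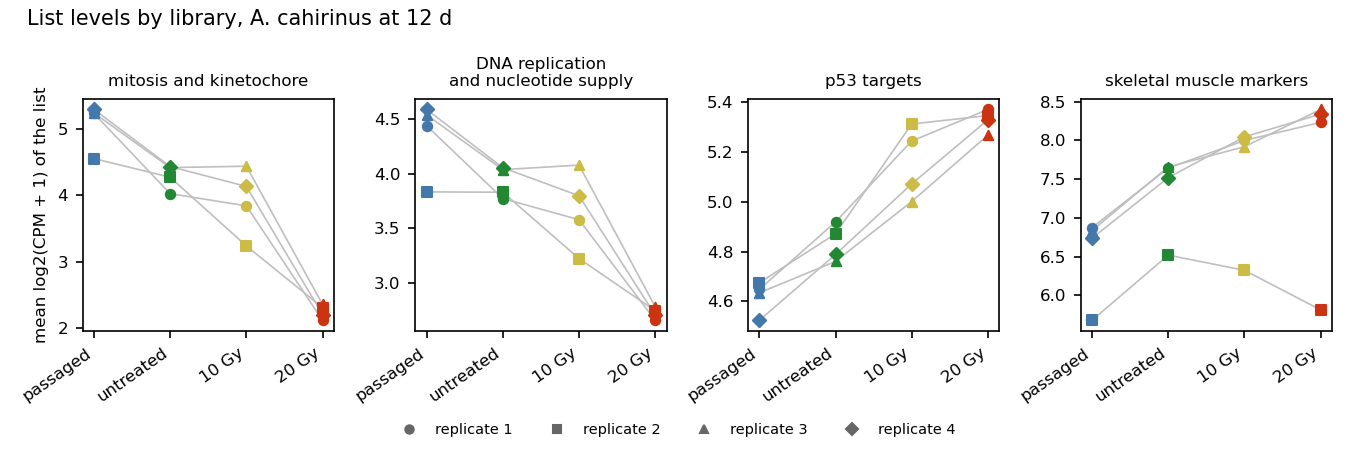
Mean log2(CPM + 1) of 4 gene lists in each *A. cahirinus* library of the 12 d series, with shapes for replicates and grey lines joining libraries of 1 replicate number. The mitosis and replication lists are lowest in the 20 Gy libraries, the mitosis list is highest and the p53 list lowest in passaged libraries, and replicate 2 stands apart from the others in the muscle list in all 4 groups.

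The change at 20 Gy depended on the untreated group for some genes. Cdkn1a was at 974, 697, 857 and 683 CPM in untreated and 1704, 1683, 1195 and 1231 CPM in 10 Gy cells, and its change at 20 Gy was 1.36 ± 0.10 against untreated (adjusted p = 0.000161). Mdm2 and Ccng1 were at 89.6 to 128 and 94.4 to 180.2 CPM in untreated cells. Untreated against passaged cells gave -0.03 ± 0.06 and 0.03 ± 0.07, which did not pass (adjusted p = 0.733 and 0.758), and their changes against untreated were 1.26 ± 0.09 and 1.70 ± 0.08. Tnc was at 776, 1349, 1102 and 873 CPM in untreated cells, within the range of the irradiated libraries, and its change against untreated was -0.13 ± 0.15 (adjusted p = 0.511). Csf1 was at 269, 440.0, 168 and 231 CPM in untreated cells, so that 20 Gy was higher than untreated (1.53 ± 0.13, adjusted p = 0.00022) where it was lower than passaged. The collagen list had a median of -0.32 against untreated (9 higher and 11 lower of 24) beside 0.61 against passaged. Matrix proteases and inhibitors gave 9 higher and 7 lower of 25 against untreated (median 0.14). WNT genes gave 9 and 6 of 24 (0.33), matrix glycoproteins 7 and 7 of 33 (0.01). Interferon-stimulated genes gave 2 and 2 of 16 (-0.09). The p53 targets gave 21 and 5 of 34 (0.51) and growth factors 15 and 4 of 23 (0.56). Lysosomal genes gave 17 and 3 of 33 (0.32) and cytokines 11 and 1 of 20 (0.92). The muscle list had 6 higher and 2 lower of 23 against untreated, with a median of 0.32. For untreated against passaged it had 18 higher and 1 lower (0.92), and proteases and inhibitors had 15 and 4 of 23 (0.74). Over all genes 23.5% were higher and 25.7% lower against untreated. For untreated against passaged the shares were 26.3% and 23.2%. Muscle markers summed to 18981, 8808, 18017 and 17855 CPM in untreated and 26218, 4742, 26387 and 26554 CPM in 20 Gy cells. Only replicate 2 was lower at 20 Gy.

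Between 20 Gy and untreated cells, among genes averaging 5 CPM or more over both groups, with 4 of 4 pairs moving one way and a symbol in the mouse table, the widest changes were those of Col22a1 (5.64 ± 0.47), Rxrg (4.81 ± 0.47), Inpp5j (4.50 ± 0.59), Scg2 (4.45 ± 0.49) and Mss51 (4.41 ± 0.62) in the higher direction, with adjusted p between 0.00022 for Col22a1 and 0.00146 for Mss51. Scg2, which encodes a secretogranin, was at 2.15, 2.63, 2.39 and 0.904 CPM in untreated, 4.91, 7.69, 6.73 and 3.10 CPM in passaged and 75.9, 13.4, 75.6 and 36.4 CPM in 20 Gy cells. In the lower direction they were Tnn (-5.61 ± 0.27), Kif2c (-4.64 ± 0.32), Plk1 (-4.59 ± 0.19), Kif23 (-4.57 ± 0.21) and Kif11 (-4.42 ± 0.13). Tnn was at 659, 237, 807 and 968 CPM in untreated cells, far above its 73.9 to 127 CPM in passaged cells.

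The same pair of groups existed in both mouse populations, and the difference between species in the change was tested over the symbols shared by the count tables. Against C56BL6 the change differed for 5265 of 14023 genes (37.5%; 2564 more positive and 2701 more negative in *A. cahirinus*), and against wild mice for 3710 of 13785 (26.9%; 1719 and 1991). Both tests use the same *A. cahirinus* libraries. Without the block the counts were 3055 and 930. Without replicate number 4, 1626 genes were more positive than in C56BL6. Against wild mice 1717 genes differed without number 1 (841 more positive and 876 more negative) and 1769 without number 4 (789 and 980). Mki67 and Top2a fell in all 3 populations. The change of Mki67 was -4.67 ± 0.22 in *A. cahirinus*, -4.81 ± 0.21 in C56BL6 and -4.05 ± 0.30 in wild mice, and the differences did not pass the test (adjusted p = 0.746 and 0.287). Top2a changed by -4.12 ± 0.15, -4.12 ± 0.18 and -3.43 ± 0.22 and Mdm2 by 1.22 ± 0.11, 1.10 ± 0.07 and 1.23 ± 0.11, with adjusted p for the differences of 0.986 and 0.093 for Top2a and 0.499 and 1 for Mdm2.

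Other panel genes changed by different amounts. Cdkn1a rose by 2.30 in *A. cahirinus*, 1.03 in C56BL6 and 1.61 in wild mice, differences of 1.27 ± 0.16 and 0.70 ± 0.16 (adjusted p = 0.000172 and 0.00781); the latter did not pass without replicate number 1 (0.06) or 4 (0.0776) or without the block (0.102). The rise of Ccng1 was larger by 0.84 ± 0.11 than in C56BL6 and by 0.78 ± 0.12 than in wild mice (adjusted p = 0.000269 and 0.000998, the latter 0.0926 without the block). Cdkn2a was at 76.6 ± 12.8 CPM in passaged and 79.9 ± 6.71 CPM in 20 Gy wild mouse cells (SD, n = 4), and its rise in *A. cahirinus* was larger by 1.99 ± 0.16 (adjusted p = 5.17e-05). The difference from C56BL6 was 0.86 ± 0.24 (adjusted p = 0.0159), and it did not pass without replicate number 1 (0.0849) or 4 (0.103) or without the block (0.105).

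**Figure D5:**
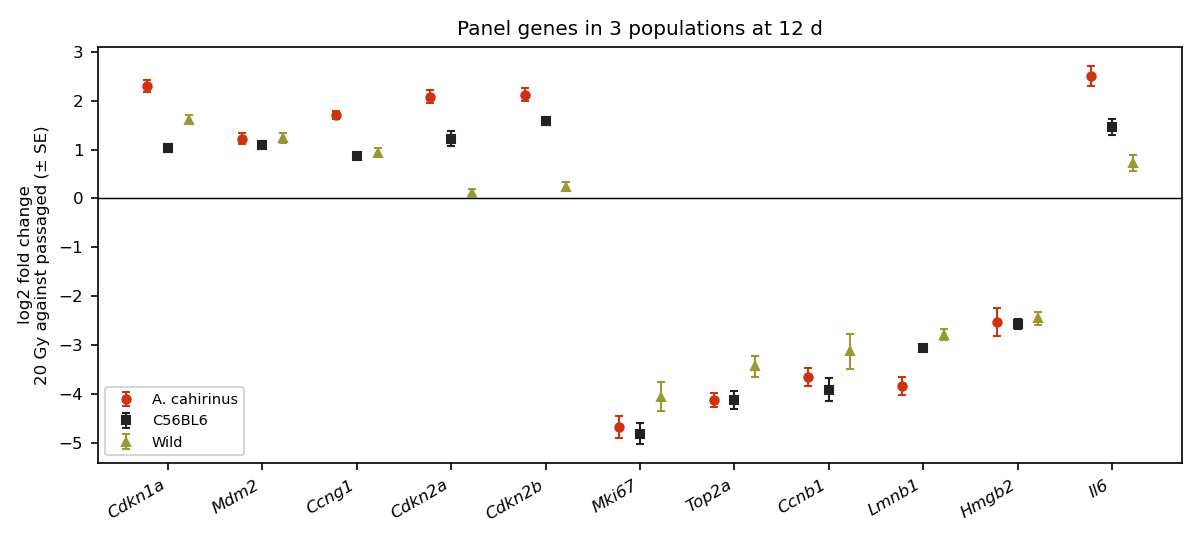
Log2 fold change of 20 Gy against passaged cells at 12 d for 11 panel genes in *A. cahirinus*, C56BL6 and wild mice, each from its own 8 libraries; bars are standard errors. Mki67 lies between -4.81 and -4.05 and Mdm2 between 1.10 and 1.23 in the 3 populations, while Cdkn2a is at 2.08 in *A. cahirinus* and 0.11 in wild mice.

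Interferon-stimulated genes often had a more negative change in *A. cahirinus* than in mice. The filter on low counts could here be passed through mouse libraries alone. It admitted 24 and 23 genes of the list, beside 14 in the fit of *A. cahirinus* itself. A gene low in *A. cahirinus* that entered through a rise in mice tends to a negative difference, so the counts are partly set by the filter. Against C56BL6, 12 of 24 had a more negative change in *A. cahirinus* and 1 a more positive one, with a median difference of -1.45 beside -0.03 over all genes, of which 19.3% were more negative and 18.3% more positive. Against wild mice the counts were 11 and 1 of 23 and the median -1.54 beside -0.05, with 14.4% and 12.5% of all genes. Bst2 rose from 7.93 ± 0.958 to 58.6 ± 8.61 CPM in C56BL6 and from 10.5 ± 8.41 to 73.3 ± 40 CPM in wild mice, beside 2.37 ± 0.340 and 6.39 ± 1.90 CPM in *A. cahirinus* (SD, n = 4 each; differences -1.51 ± 0.23 and -1.54 ± 0.26, adjusted p = 0.000566 and 0.0016). Zbp1, a sensor of nucleic acids, went from 0.494 ± 0.120 to 13.4 ± 9.97 CPM in C56BL6 and from 2.15 ± 2.09 to 24.3 ± 23.7 CPM in wild mice, and from 1.96 ± 1.06 to 3.64 ± 0.754 CPM in *A. cahirinus* (differences -3.50 ± 0.59 and -2.55 ± 0.31, adjusted p = 0.0011 and 0.000287). Of 24 cholesterol genes, 13 had a more positive change in *A. cahirinus* than in C56BL6 and 2 a more negative one (median 0.41), and against wild mice the counts were 16 and 0 (median 1.20). The collagen list had 14 more positive and 2 more negative of 24 against C56BL6 (median 1.17) and 12 and 3 against wild mice (median 0.76). Within *A. cahirinus* the median change was 0.22 for cholesterol genes and 0.61 for collagens. The differences also hold the change in mice and are not the size of a rise in *A. cahirinus*.

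Among single genes with a mean of at least 5 CPM in both populations, the change was more positive than in C56BL6 by the widest margin for the skeletal muscle actin Acta1 (5.35 ± 0.54), the gap junction gene Gjb2 (4.49 ± 0.53), the potassium channel gene Kcnf1 (4.46 ± 0.21) and the imprinted gene Peg10 (4.15 ± 0.56). It was more negative for the interferon-inducible GTPase gene Iigp1 (-5.03 ± 0.42), Ism1 (-4.75 ± 0.36), Prrg3 (-4.58 ± 0.39) and Avil (-4.49 ± 0.34). With 1 replicate left out, the change within *A. cahirinus* was 1.28 to 1.97 for Acta1, 0.986 to 1.86 for Gjb2 and 1.91 to 2.28 for Kcnf1. It was 3.17 to 4.25 for Peg10, 0.276 to 0.554 for Ism1 and -1.28 to -1.18 for Prrg3. Except for Peg10, the differences of these genes were much wider, so they also hold an opposite change in C56BL6. Avil, which encodes advillin, an actin regulator, was at 72, 44.3, 109.5 and 121 CPM in passaged and 2.71, 2.11, 5.18 and 8.98 CPM in irradiated *A. cahirinus* cells and at 7.12 ± 6.71 and 6.67 ± 2.33 CPM in C56BL6. Iigp1 went from 0.591 ± 0.284 to 15.6 ± 10.9 CPM in C56BL6, while in *A. cahirinus* it was at 21.6 ± 2.88 and 17.1 ± 6.19 CPM. Without the block, the differences of Gjb2 and Peg10 did not pass (adjusted p = 0.0766 and 0.0866).

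Against wild mice the change was more positive for Col24a1 (4.92 ± 0.57), Thbs4 (4.39 ± 0.81), Gjb2 (3.80 ± 0.48) and Peg10 (3.50 ± 0.64), none of which passed without the block (adjusted p = 0.0575, 0.591, 0.277 and 0.269). It was more negative for the ligand gene Tnfsf18 (-5.65 ± 0.66), Gdf10 (-5.25 ± 0.54), the receptor gene Tnfrsf9 (-4.38 ± 0.32) and the protease inhibitor gene Serpine2 (-3.76 ± 0.31). Tnfsf18 and Tnfrsf9 did not pass without the block (0.166 and 0.0817). With 1 replicate left out, the change within *A. cahirinus* was 0.986 to 1.86 for Gjb2, -2.3 to -1.75 for Tnfsf18 and -2.62 to -2.23 for Tnfrsf9. The differences of these genes therefore also hold an opposite change in wild mice. For Thbs4 and Peg10 the change within *A. cahirinus* was 3.53 to 4.27 and 3.17 to 4.25. Gdf10 rose in wild mice, from 7.29 ± 5.66 to 19.9 ± 20.0 CPM (adjusted p = 0.0354), while all 4 pairs of *A. cahirinus* fell. Serpine2 went from 0.958 ± 0.436 to 17.1 ± 4.81 CPM in wild mice and from 49.7 ± 18.1 to 65.7 ± 27.9 CPM in *A. cahirinus* (SD, n = 4).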

How the data were processed

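The deposited tables held raw read counts per gene, made by the authors with featureCounts (version 2.0.3 per the file headers), and a gene length in bases (a unit of another kind, given per the file headers), which was not used. Per the submitters' processing notes, Trim Galore and HISAT2 were used. Their versions are not given in the sources used here. The counting command in the file headers sets no strand option, so reads of antisense, overlapping or near-identical genes (the Myh cluster, Acta1) may be mixed. The A. cahirinus table names 19818 genes, and 18109 symbols occurred once in both species' tables.

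Each comparison was fitted on its own groups with edgeR 4.0.16 (R 4.3.3) on the deposited counts, with genes filtered by filterByExpr, TMM size factors, the replicate number as a block and quasi-likelihood tests. P-values were adjusted over all genes tested, and an adjusted p under 0.05 passed. Differences from mice were interaction terms with size factors set within each table. The numbers pair the samples. The library names give each number 1 animal code, and deviations from the group means correlated at 0.40, 0.70, 0.39 and 0.65 for the same number and at -0.65 to 0.36 for other numbers. Replicate libraries differed by more than sampling noise (chi-square per degree of freedom 18.2 to 365 over 12 pairs within groups). P-values cover the spread between these 4 animals' cultures only.

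Genes were named by rule. They were a panel of 12, the 10 largest rises and 10 largest falls (mean of at least 5 CPM, same direction in 4 of 4 pairs, symbol in the mouse table), up to 3 per direction in each of 19 pathway and 9 marker lists (mean of at least 1 CPM), 4 per direction for each difference from mice (mean of at least 5 CPM in both populations) and 5 per direction against untreated cells (by the same rule as the 10). Members and lists were chosen with earlier results of these data known, and no list was tested as a set. A panel gene and one of the largest rises are not reported here. Alternatives were no block, RLE size factors, no filter on low counts, DESeq2 1.42.0, a single fit of all 4 groups, and fits without each replicate in turn. The edgeR fit was also run on simulated counts in which few genes changed. That run does not check scaling or error control for a comparison in which 56% of genes passed.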

Additional observations from a re-analysis of the deposited data

Results flagged for a closer look

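Among 66 sets of 4 libraries of 1 gene, single libraries stood apart from the other 3 of their group by Dixon's ratio at its 95% critical value in 9 cases. Chance alone gives about 1 in 20 per set. The sets share libraries and hold genes that moved together, so the 9 cases are not independent and cannot be weighed against that rate. In passaged replicate 2, 5 genes of cell division were lower than in the other passaged libraries. They were Ccnb1 at 44.7 CPM, Depdc1a at 10.5 CPM, Hjurp at 6.51 CPM, Kif11 at 29.5 CPM and Plk1 at 28.3 CPM. The other cases were Inpp5j at 1.42 CPM in passaged replicate 1, Mybpc1 at 0.0704 CPM in passaged replicate 4, Mki67 at 6.50 CPM in 20 Gy replicate 3, the highest of its group, and Sypl2 at 5.97 CPM in 20 Gy replicate 2.

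The change at 20 Gy against passaged differed between *A. cahirinus* and C56BL6 for 5265 genes and between *A. cahirinus* and wild mice for 3710 genes by an interaction term. The values here are log2 differences, *A. cahirinus* minus mouse. Against C56BL6 they were 5.35 for Acta1, 4.49 for Gjb2, 4.46 for Kcnf1, 4.15 for Peg10, -4.49 for Avil, -4.58 for Prrg3, -4.75 for Ism1 and -5.03 for Iigp1. Panel genes gave 1.27 for Cdkn1a, 0.84 for Ccng1, 0.86 for Cdkn2a, 0.54 for Cdkn2b, -0.78 for Lmnb1 and 1.01 for Il6. Against wild mice they were 4.92 for Col24a1, 4.39 for Thbs4, 3.80 for Gjb2, 3.50 for Peg10, -3.76 for Serpine2, -4.38 for Tnfrsf9, -5.25 for Gdf10 and -5.65 for Tnfsf18. Panel genes gave 0.70 for Cdkn1a, 0.78 for Ccng1, 1.99 for Cdkn2a, 1.89 for Cdkn2b, -1.04 for Lmnb1 and 1.78 for Il6.

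The differences of Cdkn2b, Il6 and Lmnb1 depended on single numbers or on the block (edgeR, adjusted p). Against C56BL6, Cdkn2b did not pass without replicate number 1 (0.0557) or 4 (0.146) or without the block (0.327). Il6 did not pass without number 3 (0.145) or 4 (0.138) or without the block (0.423), and against wild mice it did not pass without the block (0.191). Lmnb1 did not pass against C56BL6 without number 1 (0.0517), 3 (0.0552) or 4 (0.0592) or without the block (0.0646), nor against wild mice without number 1 (0.0637) or 4 (0.0618) or without the block (0.0855).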

How the results depend on the processing

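The count of genes that differed between 20 Gy and passaged cells, 7465 with the replicate block, was 5668 without it, 7420 with RLE size factors, 7778 with no filter, 7292 by DESeq2, 8770 with all 4 groups in one fit and 5363 to 8638 with 1 replicate left out. Other counts moved by over 1.5 times. Without the replicate block they were 4287 for 20 Gy against untreated, 3348 for untreated against passaged, 2643 for 10 Gy against passaged, 3055 for the difference from C56BL6 and 930 for that from wild mice; in each direction (higher, then lower) they were 1857 and 2430, 1773 and 1575, 1294 and 1349, 1433 and 1622, and 339 and 591 in that order. With 1 replicate left out they ranged from 4294 to 7601 for 20 Gy against untreated, from 3764 to 6261 for 10 Gy against passaged (lowest in both without replicate 1) and from 1717 to 4247 for the difference from wild mice, with 1717 without number 1 and 1769 without number 4, which leave out a different animal in each species. Genes more positive than in C56BL6 numbered 1626 to 2384 and those lower in untreated than in passaged cells 1953 to 3134, lowest without number 4 and without replicate 3. The cause was not tested.

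Without the replicate block, members past the threshold numbered 13 for proteases, 11 for growth factors, 12 for collagens, 13 for matrix glycoproteins, 8 for contractile genes, 5 for interferon-stimulated genes, 7 for cholesterol genes, 12 for WNT genes, 6 for fibroblast markers, 2 for endothelial markers, 2 for pericyte markers and 3 for melanocyte and Schwann markers. With 1 replicate left out they ranged from 3 to 8 for interferon-stimulated genes, 7 to 13 for cholesterol genes, 2 to 4 for endothelial, 1 to 2 for leukocyte and 3 to 5 for melanocyte and Schwann markers. DESeq2 called 1 leukocyte marker. The antioxidant median was -0.0012 without replicate 2. Over 156 named genes and 9 settings, 1331 of 1404 values kept direction and side of the threshold, 71 lost the call, 2 gained it and 0 changed sign. Of the lost calls, 28 were without the block. Genes not discussed above that lost a call with 1 replicate left out were Cspg4, Esam, Frzb, Gtse1, Ifi35, Igfbp4, Lipe, Lss, Mcam, Mylk, Serpine2 and, in its own change, Zbp1. Depth limits values near the floor of 3 counts, 0.085 to 0.117 per M of the raw totals.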
